A study of Homo sapiens with 2 samples.

Results

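The genes described here encode splicing factors: the SR proteins (SRSF genes), the heterogeneous nuclear ribonucleoproteins (HNRNP genes) and core spliceosome components (SF3A, SF3B, U2AF and PRPF genes). They were chosen by symbol among the genes with a listed N6-methyladenosine (m6A) site, leaving out symbols that end in P and a number, which are pseudogenes. This gave 57 of 11406 named genes, with 315 of the 93541 sites listed in either library; 12 were SR genes, 21 hnRNP genes and 24 core genes. The libraries came from wild-type HEK293T cells, an established line from human embryonic kidney, labelled day 0, and were made by GLORI, which deaminates unmethylated A so that it is read as G while m6A is still read as A. There were 2 replicates of this 1 group, no untreated control, and no label saying that the replicates came from separate cultures. A level is the share of A among the A and G reads of a site, and positions are those of GRCh38. Lists start at 15 reads, 5 A reads and a level of 10%, so an unlisted adenosine has no bound on its level. At the minimum of 15 reads this means a level of 33.3% or more. The lists hold 72449 sites with 5221660 reads in replicate 1 and 81554 sites with 6306522 reads in replicate 2.

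Splicing removes introns from the pre-mRNA. SR proteins bind exonic enhancers and mostly promote exon inclusion, hnRNP proteins coat nascent RNA and often repress it, and the core factors recognise the branch point and 3' splice site or form the catalytic centre. Most m6A of mRNA is written in the nucleus by a methyltransferase complex, mainly within a motif known as DRACH (A, G or T, then A or G, then the methylated A, C, and A, C or T) and rarely close to exon junctions. Several hnRNP proteins, HNRNPC and HNRNPA2B1 among them, have been described as proteins whose binding to RNA depends on m6A. When an mRNA begins with A, that first nucleotide often carries an additional modification, N6,2'-O-dimethyladenosine (m6Am), made by another enzyme.

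Several of these mRNAs had a methylated A at the very first annotated nucleotide, and the sequences around it are given beside counts over all named genes. Among the 57 genes, 11 (19.3%) had such a site in both libraries, namely HNRNPA1, HNRNPA2B1, HNRNPAB, HNRNPH2, HNRNPH3, HNRNPUL1, PRPF8, PRPF38A, SF3B1, SF3B5 and SRSF6. The share was 3.66% over all named genes and 15.4% over the 1140 genes of the highest coverage decile. The 19.3% thus lies nearer the share of highly covered genes. By class they were 6 of 21 hnRNP genes, 4 of 24 core genes and 1 of 12 SR genes. Of these classes 9, 8 and 4 genes were in the highest coverage decile, and the classes were not compared at like coverage. For 10 of them RefSeq (GRCh38.p14) gave the start sequence; these are shown with 14 bases on each side of the site, on the strand of the gene, the listed A in capitals and the bases before it upstream of the annotated start:
HNRNPA2B1 (chr7:26200732-26200760, minus strand): gcggctctagcggcAgtagcagcagcgcc
HNRNPAB (chr5:178204519-178204547, plus strand): gagtcggcattgtcAggcggcggcaccgc
HNRNPH3 (chr10:68332050-68332078, plus strand): catccccccaagccAgtagctgtgctgcg
HNRNPUL1 (chr19:41264358-41264386, plus strand): cggtggcggcggccAttttgagccgctgc
HNRNPH2 (chrX:101408208-101408236, plus strand): gcgctcacgtgattActcgcttacgtgag
SRSF6 (chr20:43457882-43457910, plus strand): cgcgcgcgcgcgccAttgtgtggctggac
PRPF8 (chr17:1684853-1684881, minus strand): aactcgggttgcgcActtcccggcgctgg
PRPF38A (chr1:52404588-52404616, plus strand): agcggaagccctttAcactacggtgtttc
SF3B1 (chr2:197435014-197435042, minus strand): ttcttgggagcgccAgttccgtctgtgtg
SF3B5 (chr6:144095559-144095587, minus strand): cgcgcggtggcttcActctcctgtaaaac
In 8 of these 10 the base before the A was C and in the other 2 it was T. Over all named genes it was C at 238 of 326 such sites (73.0%). Of all 35116 annotated starts 15605 began with A, and C stood before that A at 10400 of these 15605. The pentamer around the first A was a DRACH motif at 0 of the 10 and at 1.53% of the 326. These shares follow from the base before the A, where DRACH needs A or G: of the 326, 238 had C and 71 had T. The first 2 bases of that pentamer also lie upstream of the annotated start. The start windows held 250 bases before the annotated start and 50 bases from it on. A further stretch ran from base 3 to base 48, counted from the annotated start as base 1. At shared sites of all named genes in that stretch, the pentamer was a DRACH motif at 101 of 280 (36.1%). For the splicing factor genes it was one at 0 of 2. Of all A in that stretch of the windows 7.54% lie in such a pentamer. GLORI counts do not tell m6A from m6Am at this position.

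Levels at first nucleotides ranged widely between genes. In HNRNPA2B1 the site at position 26200746 of chromosome 7 had 54.6% in replicate 1 (213 of 390 reads) and 51.5% in replicate 2 (234 of 454). HNRNPAB had 48.2% (55 of 114) and 57.3% (71 of 124). These were the highest of the 11, and their 95% Wilson intervals on summed reads, 49.6 to 56.3% and 46.6 to 59.2%, lay apart from those of 8 others; that of PRPF8 was wide, 28.4 to 56.7%. HNRNPA1, the prototype splicing repressor of the family, had 36.6% and 29.9% at position 54280726 of chromosome 12. The lowest level with many reads was that of SF3B5, with 15.2% (27 of 178) and 16.1% (36 of 223). SRSF6 had 31.2% and 30.8% over 32 and 26 reads, and SF3B1, the branch-point binding subunit often mutated in leukaemia, 22.2% and 20.3%. PRPF4B had 57.1% (12 of 21 reads) and PRPF19 16.7% (5 of 30) at the first nucleotide in replicate 2 only. The starts of PRPF38A, HNRNPH3 and HNRNPH2 also lie within the spans of ORC1, PBLD and RPL36A-HNRNPH2. The strands of these overlapping genes were not compared with those of the sites, so whether reads there could belong to them was not tested.

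**Figure D1:**
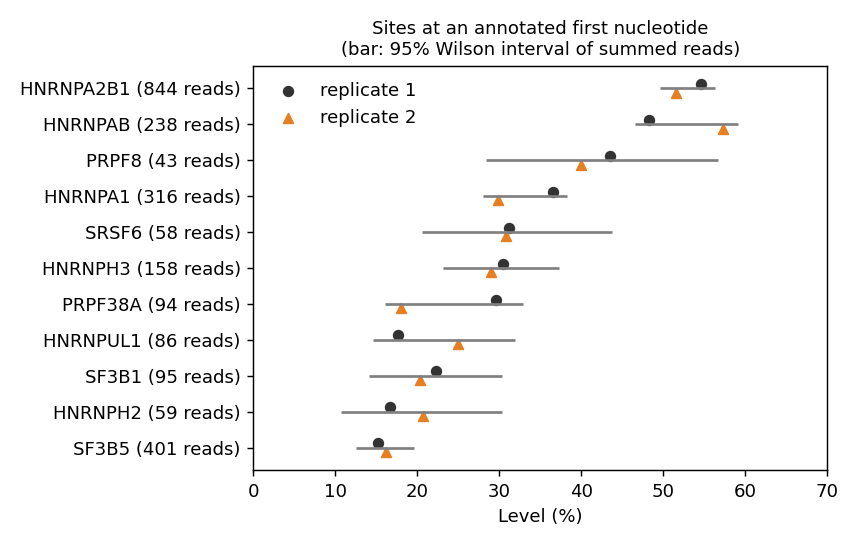
Level (%) at the annotated first nucleotide of the 11 splicing factor genes with such a site in both libraries; circles are replicate 1, triangles replicate 2, and bars the 95% Wilson interval of the summed reads, whose number is in brackets. HNRNPA2B1 and HNRNPAB lie highest, SF3B5 lowest.

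The replicates were compared site by site. Both listed 208 of the 315 sites (66.0%, 95% Wilson interval 60.6 to 71.0), against 66.1% over all named genes. Fisher's exact test, two-sided, with Benjamini-Hochberg adjustment over all 60462 shared sites of the series called 0 of the 208 (0% of all sites were called), and a chi-square test also called 0. An unadjusted p under 0.05 was reached at 6 of the 208 sites (2.88%) by either test, against 3.06% over all sites by Fisher's test. The smallest was that of position 137753973 of HNRNPA0, where 552 of 552 reads in replicate 1 and 571 of 586 in replicate 2 were A (Fisher's exact test p = 6.1e-05, adjusted p = 1). Levels of the libraries lay a median of 3.36 percentage points apart, and at most 34.9 points, in HNRNPA1L2 over 29 and 18 reads. The test covers only sites listed in both libraries, not the 107 listed once, and no call does not show that levels were equal. As the labels name no separate cultures, the libraries were counted as 1 sample. Gene values below are means over shared sites with a counting standard error, which covers sampling of reads only and takes each read as a separate molecule.

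**Figure D2:**
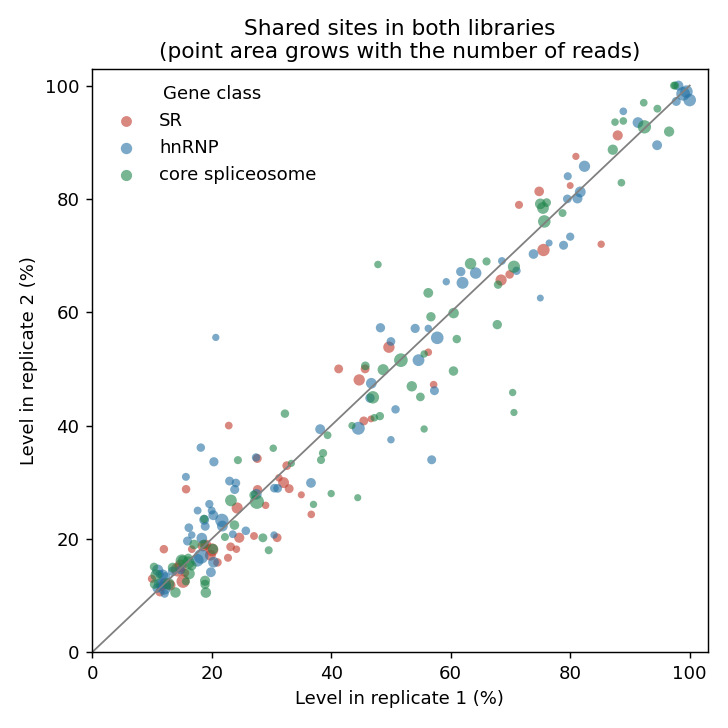
Level (%) in replicate 1 against replicate 2 for the 208 shared sites, coloured by gene class, with point area growing with the number of reads; the line marks equal levels. The largest departure, in HNRNPA1L2, rests on 29 and 18 reads, and HNRNPA3 lies off the line at 56.8% and 34.0% over 88 and 106 reads.

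All 12 SR genes had a shared site (against 83.5% of all named genes), 51 in total, with a median of 4.5 per gene. Of the 51 sites, 12 were at 50% or more (23.5%, against 45.2% of sites over all named genes and 28.9% in the highest coverage decile). At 80% or more were 3 (5.88%, against 20.1% and 11.7%), and under 20% were 17 (33.3%, against 15.2% and 33.0%). The share under 20% is thus near that of highly covered genes, and 4 of the 12 SR genes are in that decile. SRSF4 had the most, with 9 sites at a mean of 35.4% ± 1.3 (36.4% in replicate 1 and 34.5% in replicate 2). Its sites 22 nt apart differed strongly: position 29148388 of chromosome 1 (minus strand) had 75.5% (355 of 470 reads) and 71.0% (406 of 572), whereas position 29148410 had 14.3% (112 of 783) and 14.6% (132 of 907). The intervals of this pair, 70.3 to 75.6% and 12.8 to 16.2%, do not overlap. Of its 9 sites 8 lay in the last 10% of the gene.

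SRSF1, the founding SR protein and a splicing regulator with oncogenic activity, had 8 sites at 28.4% ± 1.4. Of these, 6 lay within 258 nt, between 17.4% and 47.8%. The deepest site of SRSF1, position 58007046 of chromosome 17 (minus strand), 201 nt from the gene start, had 14.8% (77 of 520) and 15.2% (98 of 643). SRSF2, which binds exonic enhancers and is mutated in myelodysplasia, was the lowest SR gene with at least 5 sites. Its 5 sites averaged 18.8% ± 0.88, ran from 12.2% to 30.9% and lay within 461 nt. The most covered of them, position 76737105, had 15.2% (101 of 664) and 12.5% (93 of 743), and the highest, position 76737331, had 27.6% and 34.2% over 76 and 117 reads. All 5 lie under MFSD11 as well, a gene whose annotated span overlaps SRSF2 and whose strand was not compared.

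Higher levels were found in SRSF5, SRSF6 and SRSF11. In SRSF5 4 sites within 173 nt averaged 59.6% ± 1.0, with 88.0% and 91.2% at position 69771462 of chromosome 14 (146 of 166 and 197 of 216 reads) and 19.1% and 19.0% at position 69771620, 158 nt further. SRSF6 had 44.4% ± 2.1 over 5 sites. Within its run of 4 sites spanning 56 nt, position 43461070 of chromosome 20 had 69.9% and 66.7%, while position 43461063, 7 nt before it, had 31.0% and 20.2%. SRSF11 had 43.8% ± 1.4 over 5 sites, from 14.8% to 75.2%; its deepest site, position 70221787 of chromosome 1, had 20.04% and 18.1% over 564 and 708 reads, and position 70250801 had 68.4% and 65.7%. SRSF8, a gene known as a retroposed copy of SRSF2, had 8 sites at 36.2% ± 1.8, which ran from 11.5% to 81.2% and were thinly covered, with a median of 43.25 reads per site. Its deepest site, position 95067816 of chromosome 11, had 41.2% (33 of 80) and 50% (50 of 100). The other SR genes had few sites: 3 in SRSF7 (21.4% ± 1.8) and 1 each in SRSF3 (18.7% ± 1.5), SRSF9 (46.4% ± 1.9), SRSF10 and SRSF12.

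**Figure D3:**
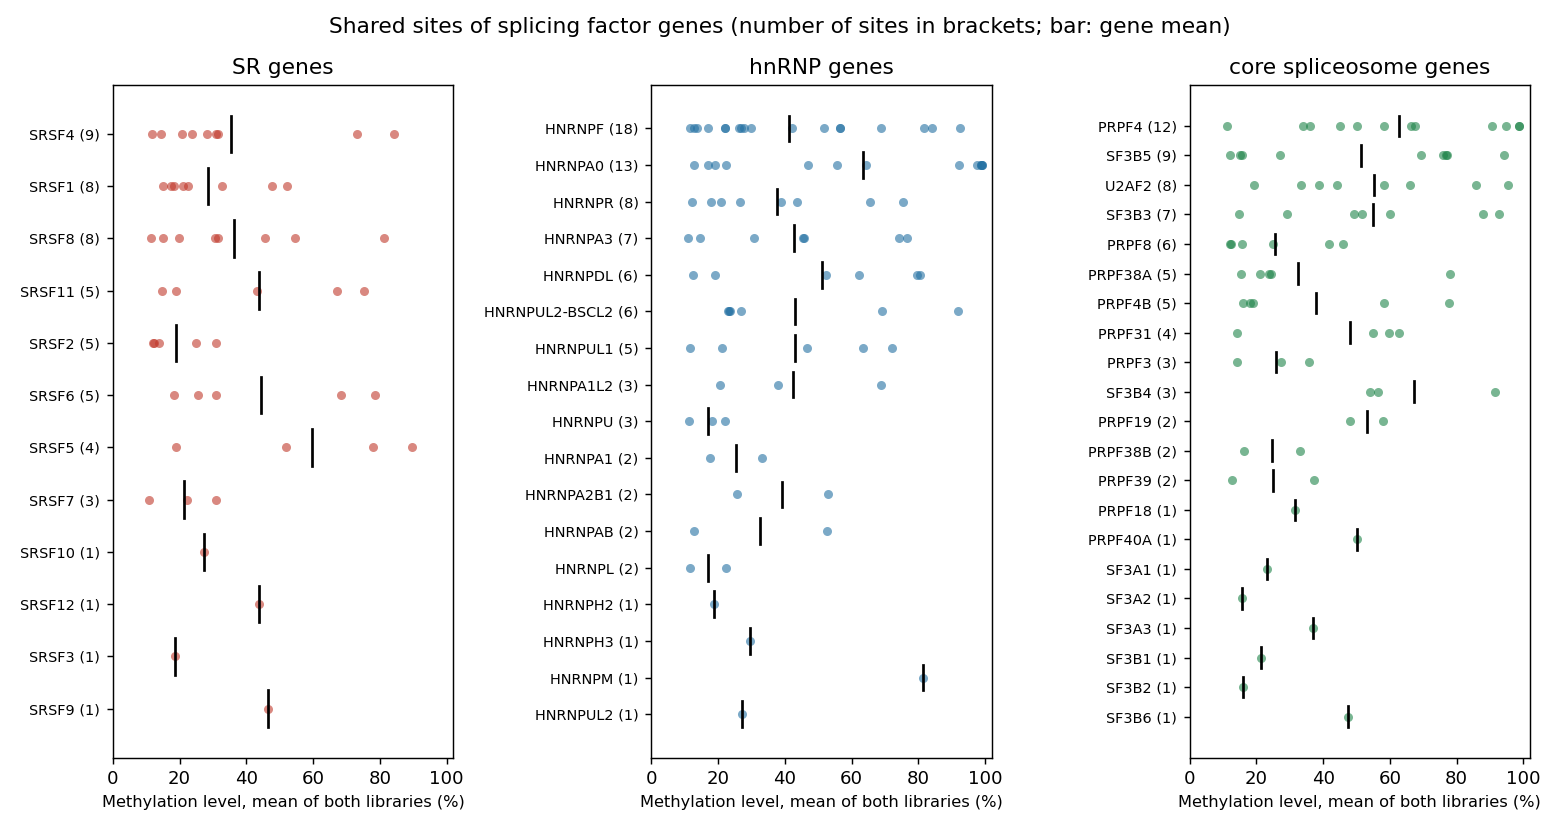
Level (%, mean of both libraries) of every shared site of the 50 splicing factor genes that had any, by class; each dot is a site, the number of sites is in brackets and the black bar is the gene mean. HNRNPF, HNRNPA0 and PRPF4 have the most sites, with levels from 11.6 to 92.4%, 12.7 to 99.2% and 11.2 to 98.8%.

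Of the 21 hnRNP genes 17 had a shared site (81.0%, against 83.5% of all named genes), 81 sites in total. The class was dominated by HNRNPF and HNRNPA0, which held 31 of them. The median was 2 per gene. At 50% or more were 31 of the 81 sites (38.3%, against 45.2% over all named genes and 28.9% in the highest coverage decile). At 80% or more were 12 (14.8%, against 20.1% and 11.7%), and under 20% were 20 (24.7%, against 15.2% and 33.0%). HNRNPF, a protein that binds G-rich runs, had 18 sites in both libraries, all within 998 nt and all in the last 10% of the annotated gene, between 1193 and 2190 nt from its end. Their mean was 41.4% ± 0.74 (41.0% and 41.8%), and they ran from 11.6% to 92.4%. The deepest 3 were adjacent and unequal. Position 43387787 of chromosome 10 (minus strand) had 57.8% (298 of 516 reads) and 55.5% (359 of 647), position 43387799 had 44.5% (261 of 586) and 39.5% (281 of 711), and position 43387808 had 17.6% (100 of 569) and 16.2% (106 of 653). Their intervals do not overlap (53.6 to 59.3%, 39.1 to 44.5% and 14.9 to 19.1%). Position 43387242 reached 91.3% and 93.5%.

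HNRNPA0, a small hnRNP whose gene has no introns, had the highest sites. Its 13 shared sites averaged 63.4% ± 0.54 (62.9% and 63.9%), and 6 of them were at 80% or more. Position 137753963 of chromosome 5 (minus strand) had 99.5% (549 of 552 reads) and 98.9% (556 of 562). Position 137753973, 10 nt away, had 100% and 97.4%. Position 137752947 had 98.9% (808 of 817) and 98.5% (882 of 895). Of the 10 highest sites with at least 50 reads in both libraries among all 57 genes, 5 were in HNRNPA0. Low sites lay nearby: position 137753907 had 21.7% (163 of 751) and 23.3% (181 of 778), position 137753807 had 11.8% and 13.7%, and position 137754015 had 18.3% and 20.1%. Positions 137753963 and 137753907 thus lay 56 nt apart with mean levels of 99.2% and 22.5%. All 13 lay within the first 2263 nt of the 8713 nt span.

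**Figure D4:**
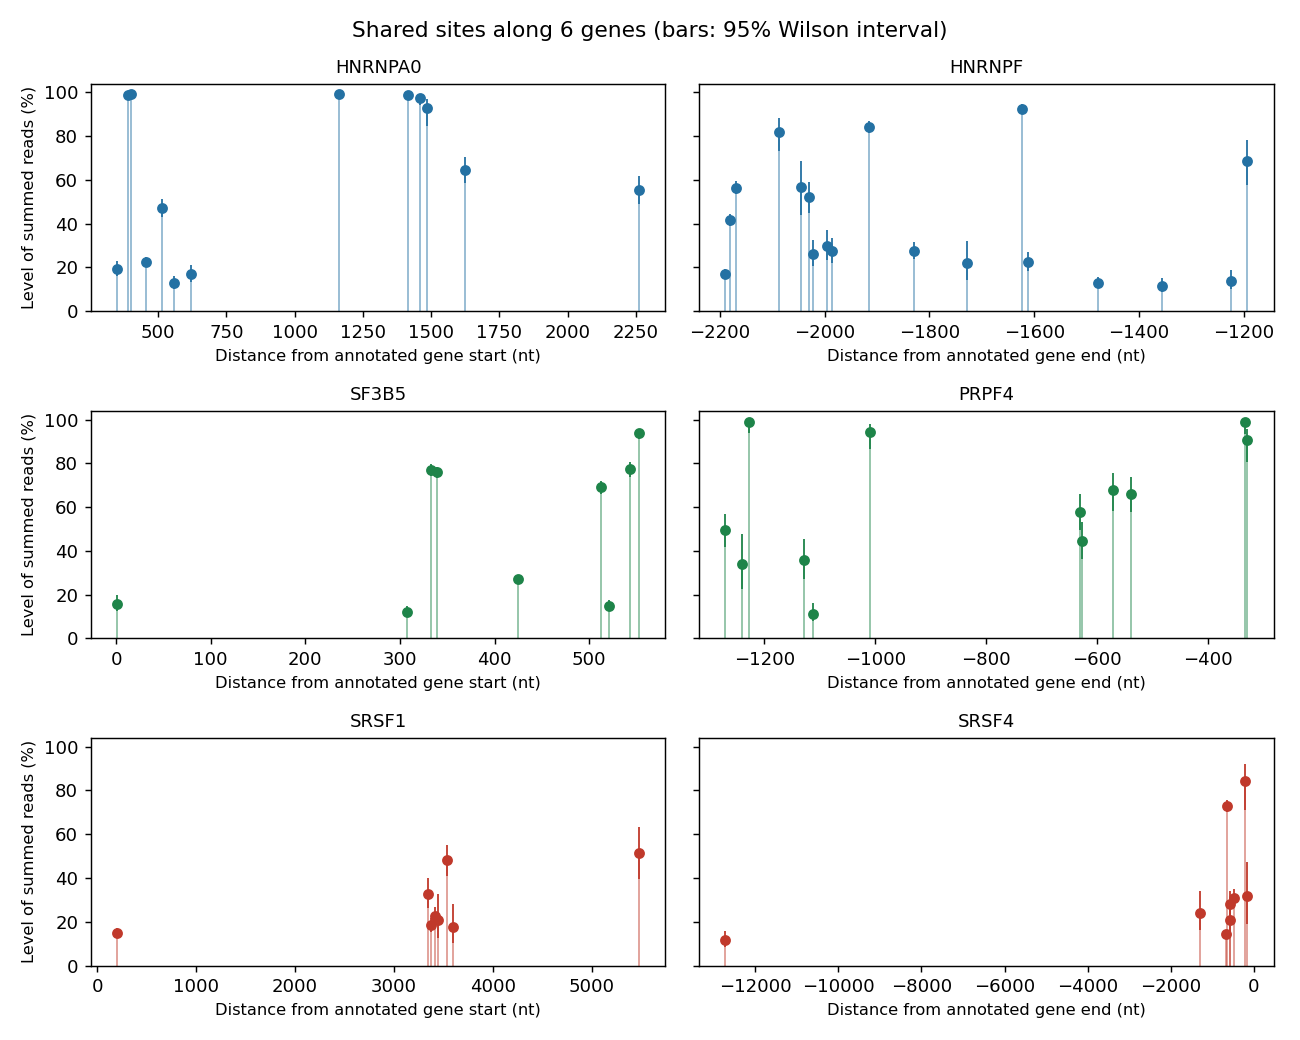
Level (%) of the summed reads, with 95% Wilson intervals, at the shared sites of HNRNPA0, SF3B5 and SRSF1 against distance from the annotated gene start (nt), and of HNRNPF, PRPF4 and SRSF4 against distance from the annotated gene end (nt, negative before it). Nearly complete and weak sites lie close together in HNRNPA0, HNRNPF, SF3B5 and PRPF4.

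HNRNPDL, HNRNPR, HNRNPA3 and HNRNPUL1 followed. HNRNPDL had 6 sites at 51.1% ± 1.6, of which position 82429800 of chromosome 4 had 81.2% and 80.1% over 165 and 221 reads. HNRNPR had 8 sites at 37.6% ± 1.2 within 636 nt, from 12.2% to 75.4%; its deepest, position 23310578 of chromosome 1, had 64.2% (215 of 335) and 66.9% (273 of 408), and its lowest, position 23310766, had 12.5% and 11.8%. HNRNPA3 had 7 sites at 42.7% ± 1.6, of which 4 lay within 80 nt between 14.7% and 76.7%. HNRNPUL1 had 5 at 43.1% ± 1.4: the deepest, position 41264565 of chromosome 19, had 62.0% (269 of 434) and 65.2% (294 of 451), and the lowest, position 41292271, had 11.5% and 12%. HNRNPM had a single shared site, at 81.7% (223 of 273) and 81.2% (225 of 277), position 8485753 of chromosome 19. Other well known members had low levels at the sites listed. HNRNPA1 had 18.2% (189 of 1037) and 16.9% (203 of 1201) at position 54285043, its only shared site other than the first nucleotide. HNRNPL, which binds CA repeats, had 17.1% ± 2.3 over 2 sites, and HNRNPU, also known as scaffold attachment factor A, had 17.1% ± 1.3 over 3. HNRNPC, HNRNPD, HNRNPH1 and HNRNPLL had 2 to 3 listed sites each, none of them in both libraries.

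Core spliceosome genes had 76 shared sites in 21 of 24 genes (87.5%, against 83.5% of all named genes), with a median of 2 per gene. At 50% or more were 31 sites (40.8%, against 45.2% over all named genes and 28.9% in the highest coverage decile). At 80% or more were 10 (13.2%, against 20.1% and 11.7%), and under 20% were 19 (25%, against 15.2% and 33.0%). The 9 SF3A and SF3B genes encode the parts of the U2 particle that bind the branch point, and their sites lay mostly in SF3B5 and SF3B3. SF3B5, a gene without introns that spans only 690 nt, had 9 sites, each listed in both libraries, at 51.5% ± 0.48 (51.4% and 51.5%). Of these 8 lay within 247 nt. Position 144095021 of chromosome 6 (minus strand) had 96.6% and 91.9%. Position 144095149, with the most reads, had 27.6% (252 of 914) and 26.5% (288 of 1085). Position 144095235 had 75.7% and 76.0%, and position 144095267, 32 nt away, 10.7% and 13.6%. SF3B3 had 7 sites at 55.1% ± 0.88. Position 70571844 of chromosome 16 had 92.4% (634 of 686) and 92.7% (751 of 810), and position 70571910, 66 nt away, 19.0% and 10.5%. SF3B4 had 3 sites at 67.3% ± 3.7. SF3A1, SF3A2, SF3A3, SF3B1, SF3B2 and SF3B6 had 1 shared site each. That of SF3A2 had 15.02% and 16.2% (526 and 625 reads), and that of SF3B2 16.1% and 15.8% (435 and 575).

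Among the PRPF genes, PRPF4, a protein of the U4/U6 particle, stood at the top. Its 12 sites averaged 62.6% ± 1.2 (63.5% and 61.7%), all in the last 10% of the gene, and 4 were at 80% or more. Positions 113291678 and 113292572 of chromosome 9 (plus strand) had 97.6% and 100%, and 97.4% and 100%, over 38 to 46 reads, while position 113291793, with 96 and 125 reads, had 10.4% and 12%. PRPF8, the largest protein of the catalytic centre, had 6 sites scattered over 24949 nt at 25.5% ± 1.4, no pair of them within 500 nt. The highest of them, position 1674532 of chromosome 17, had 47.0% (233 of 496) and 45.0% (269 of 598). PRPF31 had 4 sites within 167 nt at 48.0% ± 1.4, and PRPF38A and PRPF4B had 5 each at 32.6% ± 1.7 and 37.7% ± 1.7. In PRPF4B position 4060525 of chromosome 6 had 76.1% (54 of 71) and 79.3% (73 of 92), and position 4060552, 27 nt further, had 16.7% (22 of 132) and 15.3% (20 of 131). PRPF4B is the kinase gene that RefSeq now names PRP4K. PRPF6, PRPF40B and U2AF1L4 had listed sites but 0 in both libraries.

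U2AF2 encodes the large subunit of the factor that binds the polypyrimidine tract. It had 8 shared sites at 55.1% ± 1.8, of which 7, within 438 nt, lay before its RefSeq start and ranged from 19.2% to 95.3%. Of its 15 sites in either list, 12 lay there, 295 to 756 nt upstream. The authors' lists name U2AF2 for them, and no RefSeq gene spans them. The shared site inside the gene, position 55674058 of chromosome 19, had 63.3% (221 of 349) and 68.6% (253 of 369). Its partner U2AF1 and HNRNPK had no site in either list, and neither did 5 hnRNP-like genes of RefSeq, HNRNPA1L3 and HNRNPCL1 to HNRNPCL4.

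The 3 classes had like levels per gene. Median gene levels were 35.8% over 12 SR genes, 39.3% over 17 hnRNP genes and 36.9% over 21 core genes, with quartiles of 26.0 and 44.0%, 27.1 and 43.0%, and 24.9 and 51.5%. Their order changed with the list used. The full list of replicate 1, with its sites listed once, gave 33.3, 27.4 and 28.3%. That of replicate 2 gave 30.2, 35.8 and 30.7%. These lists cover more genes, 21 and 20 for hnRNP and 23 and 22 for core. At the shared sites the libraries lay closer: hnRNP genes had 38.2 and 37.6%, SR genes 35.8% in both, core genes 37.0 and 35.1%. The hnRNP median was the highest of the 3 in each library there, whereas SR and core genes changed places. The classes were not tested against each other, since genes are not replicates. Median site level was 28.2% for SR, 30.9% for hnRNP and 43.0% for core genes. Over all named genes the median gene level was 46.6%, and in the highest coverage decile it was 31.0%. The splicing factor genes were more deeply covered than most. Their median of the gene coverage that the authors deposited was 90.3, against 29.8 over all genes. Each gene was therefore set beside the median of the genes in its own coverage decile. Of the 50 genes with shared sites, 24 lay above that median (against 50% of all genes) and 26 below, that is 5 and 7 SR genes, 10 and 7 hnRNP genes, and 9 and 12 core genes. HNRNPM (by 43.6 percentage points), HNRNPA0 (32.4) and SRSF5 (28.6) lay farthest above. The value of HNRNPM rests on 1 shared site. Replicate 2 alone also listed its positions 8485947, with 11.3% (34 of 301 reads), and 8462562, with 13.8% (9 of 65). Farthest below lay PRPF18 (-28.2), SRSF10 (-22.3) and HNRNPH2 (-22.0), each with 1 shared site. For the number of sites, 21 genes lay above their decile's median and 27 below, against 44.4% and 41.2% over all genes.

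**Figure D5:**
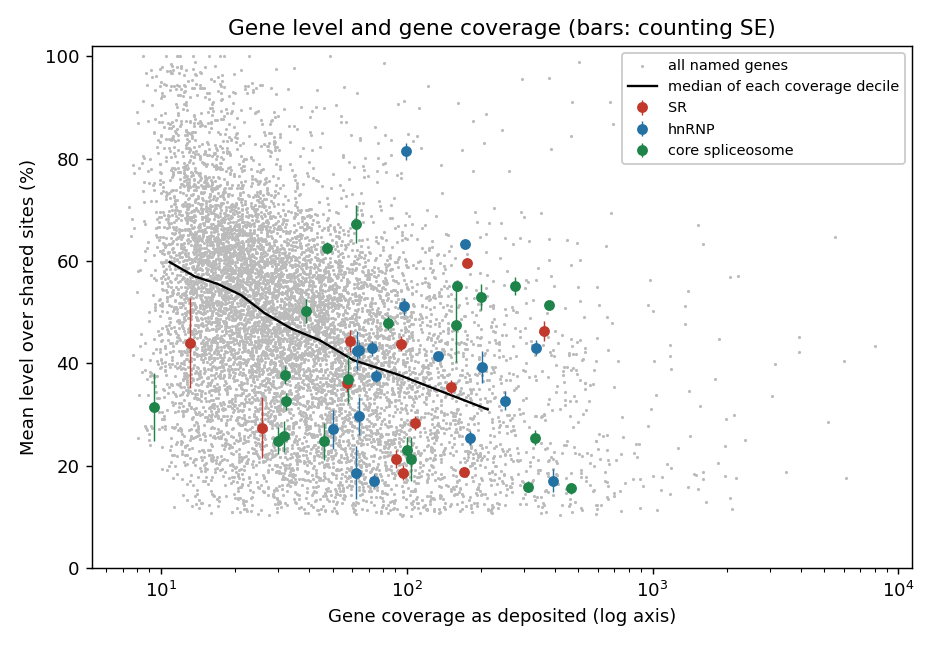
Mean level (%) over shared sites against the authors' gene coverage (log axis) for all named genes (grey) and for splicing factor genes by class, with counting SE; the black line joins the medians of the coverage deciles. The coloured genes lie on both sides of the line, 24 above and 26 below.

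Sites were placed by their distance from the annotated gene end. In the last 10% of the gene lay 12 of 51 SR sites (23.5%), 22 of 80 hnRNP sites (27.5%) and 27 of 69 core sites (39.1%), against 42.9% over all named genes and 40.8% in the highest coverage decile. The core share is close to both. HNRNPF gave 18 of the 22 in hnRNP genes, and PRPF4 gave 12 of the 27 in core genes. Within 1 kb of the end lay 21.6% of SR, 1.25% of hnRNP (1 site, in HNRNPA3) and 37.7% of core sites, against 22.7% over all and 40.9% in the highest coverage decile. The 9 core sites in SF3B5 count here whatever their place, since that gene spans 690 nt. The largest number of shared sites within 500 nt had a median of 2 over these genes, against 3 over all named genes and 2 in the highest coverage decile. The highest numbers were 12 in HNRNPF (over 463 nt), 8 in SF3B5, 7 in HNRNPA0 and in U2AF2, and 6 in SRSF1, SRSF4, HNRNPR, PRPF4 and HNRNPUL2-BSCL2. Exons were not used here, so a site cannot be placed in a UTR, coding exon or intron, and numbers of sites are not per length of mRNA.

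The 107 sites listed in a single library were weak. Replicate 1 alone listed 53, of which 42 were under 20% (median 12.9%), and replicate 2 alone listed 54, of which 37 were (median 14.7%). The share listed by both was 65.4% for SR, 66.9% for hnRNP and 65.5% for core genes, against 66.1% over all named genes. It was 82.2, 89.0 and 82.9% when only sites with a level of at least 20% in a list were counted. Levels of sites listed once, and shares at 20% or more, were not computed over all named genes. They are therefore not shown to be particular to these genes. The authors' conversion fraction, given per gene, was lowest in 3 genes with many sites. It was 94.7% in SF3B5, 95.6% in HNRNPA0 and 96.2% in HNRNPF, against a median of 98.1% in their coverage decile. Whether this affects their levels was not tested.

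Near-identical copies limit some of these counts. The lists name 28 pseudogenes of these families, mostly copies of HNRNPA1, with 36 sites, of which 20 were shared. SF3B4P1 had 4 shared sites at 55.7% ± 1.6, HNRNPFP1 had 3 at 18.5% ± 1.1 and HNRNPA3P1 had 1 at 76.9% ± 1.7. Reads of a gene and its copy can be hard to tell apart, which touches HNRNPA1, HNRNPA3, HNRNPF, SF3B4 and the retroposed genes HNRNPA1L2 and SRSF8. Copies of HNRNPC, HNRNPD, HNRNPK, HNRNPM and HNRNPR had listed sites too, so the same limit holds for these genes. HNRNPUL2-BSCL2 is a readthrough transcript, and its 6 shared sites all lie inside HNRNPUL2, which has 1 of its own; counted together they had 40.7% over 7 sites, from 22.9% to 92.01%.

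Other splicing genes were described in the same way, and the difference from the 57 was not tested. From a list of 113 (snRNP proteins, helicases, exon junction and regulatory factors) 95 had a listed site and 80 a shared one, 429 in total. Their median was 2 sites per gene and 33.8% per gene; of the 80, 28 had a higher level than the median gene of like coverage and 52 a lower one, and 9 of the 95 (9.47%) had a shared first-nucleotide site. The most shared sites were in SON, with 83 at 46.8% ± 0.34, and SRRM2, with 58 at 32.0% ± 0.26. ACIN1, an exon junction accessory protein, had 20 sites at 59.2% ± 0.78, and the helicase gene DDX42 had 14 at 45.1% ± 1.3. PCBP1 had 10 at 50.8% ± 0.54 and NONO, a paraspeckle protein, 5 at 23.1% ± 0.41. Of 8 marker genes listed for HEK293T, 7 had a listed site (VIM, KRT8, KRT18, NEFL, NEFM, INA and PAX2, but not LHX1). KRT8 and KRT18 had no shared site. Site lists do not measure expression, so this cannot check the cell label.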

How the data were processed

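The data were lists of m6A sites in 2 GLORI libraries of wild-type HEK293T mRNA. Per the file headers, the authors' lists give for each site the count of A or G reads and of A reads and their fraction (the level; it equalled the ratio of the counts within 5e-06). For every gene the authors also deposited its coverage, whose scaling is not stated, and the fraction of A converted. The authors also computed a p-value for each site and adjusted it over sites, per the file headers; neither was used here. Reads were handled with Trim Galore 0.6.6, STAR, Bowtie and SAMtools on GRCh38, per the submitters' processing notes, without roles. No source used here names the site caller or the annotation. The lists hold only sites past the authors' limits, so weak sites and weakly covered genes are missing.

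Shared sites have the same position and strand in both lists. Their counts were compared with Fisher's exact test (SciPy 1.17.1) and adjusted over all shared sites at 0.05, a step tested on simulated data. Standard errors used counts with 0.5 read added. Intervals are 95% Wilson and cover counting error only. Gene spans and starts came from NCBI RefSeq (GRCh38.p14), which held all 57 genes, 1 through a synonym; start windows were found for 51. A shared start site was sought at every annotated start of a gene. Coverage deciles were formed over all 11406 named genes. Full values were given, by class, to the 5 genes with most shared sites and the 3 highest and 3 lowest among genes with at least 5, and to their deepest sites and the highest and lowest with at least 50 reads in both lists; other genes and sites were named after their values were seen. The genes and lists were chosen with earlier results of these data known. Alternatives were coverage minima of 30 and 50 reads, a level of at least 20%, single lists, read-weighted levels, the last 1 kb, and leaving out 3 readthrough or retroposed genes (HNRNPUL2-BSCL2, HNRNPA1L2 and SRSF8).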

Additional observations from a re-analysis of the deposited data

How the results depend on the processing

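A median level counted as moved when it left the spread between the libraries' own medians (1 SD), a share when it left its 95% Wilson interval, and a number of sites when it changed by over 1.5 times. So judged, 38 of 68 recomputed values stayed and 30 moved. The median gene levels moved in every class under every alternative. For SR genes the libraries' own medians were 35.80 and 35.82%, so that nearly any change counted as a move. The count of 0 replicate differences held under every alternative run. Median gene levels of SR, hnRNP and core genes were 29.4, 37.1 and 32.6% at 30 reads or more in both libraries, 28.6, 36.8 and 30.02% at 50 reads or more, 43.9, 44.1 and 47.5% for levels of at least 20%, and 32.5, 36 and 32% when weighted by reads. Without replicate 1 or 2 they ran from 30.2 to 33.3%, 27.4 to 35.8% and 28.3 to 30.7% in the single lists, which include sites listed once. All of these lay below the main values, and the cause was not tested. Without the readthrough and retroposed genes SR and hnRNP medians were 35.4 and 37.6%. Median sites per gene fell to 2.5 in SR genes for levels of at least 20%, to 1 in hnRNP genes at that level or at 50 reads, and to 1 in core genes at that level or at 30 or 50 reads. The share listed by both libraries rose to 82.2, 89.0 and 82.9% for levels of at least 20%. The share of hnRNP sites near the gene end was 1.25% for the last 1 kb in place of the last 10%. Sites per length, other transcript models and the motif by class were not run, as no genome was used. No paired analysis was possible because the labels give 1 group.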

Other observations

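A further sequence recurred among sites near starts of splicing factor genes. Of 25 sites of these genes that lay within a RefSeq start window in either list, 5 (20%) had CCATTT with its A as the listed site, against 20 of 1548 (1.29%) over all named genes. These 5 are shown with 14 bases on each side, the listed A in capitals:
HNRNPD (chr4:82373970-82373998, minus strand): ttcttccgtcggccAttttaggtggtccg
HNRNPH1 (chr5:179623656-179623684, minus strand): ggcgcccgctggccAtttcgtcttagcca
HNRNPUL1 (chr19:41264358-41264386, plus strand): cggtggcggcggccAttttgagccgctgc
SRSF3 (chr6:36594353-36594381, plus strand): ggcggtggtccgccAtttcgtggacgccg
SRSF5 (chr14:69767098-69767126, plus strand): aggacgcgccctccAttttgtggagcgcc
The site of HNRNPUL1 was the first nucleotide and shared by both libraries, at 17.6% and 25%. The others were listed once: HNRNPD at base 8 from the start with 10.1% (7 of 69 reads), HNRNPH1 at base 2 with 11.2% (11 of 98), SRSF3 at base 6 with 22.9% (8 of 35), and SRSF5 30 bases upstream of its first annotated nucleotide with 42.9% (9 of 21). SRSF6, with the letters CCATTG around its first nucleotide, differs from the motif at its end. CCATTT occurred on either strand in 14.96% of all 35116 windows and was placed with its A at the start in 0.185% of them. The motif was chosen after these sequences were seen, so the counts are a description and have no test.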
